A study of Mus musculus with 212 samples.

Results

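Single cells named E8.5 were compared with single cells named E7.5 by microfluidic quantitative PCR, over 42 TaqMan assays of 33 genes. The cells were chosen by the cell names in 1 table of the series, which gave 6 cells per stage, 12 of 200 cells in all, and its negative and positive control columns were left out. The names stand for mouse embryos at embryonic day 7.5 and day 8.5, and the table's name gives the same stages. The sample titles of this table describe late cells derived from embryonic stem cells, and the source named is the embryoid body, so titles and cell names disagree on the origin. The stages are called here by the cell names. No strain, genotype, treatment, embryo, litter, sort gate or chip is given for these cells in the sources used here. Each stage is therefore 1 sample, the cells are not replicates of it, and no difference between stages could be tested. The SD given throughout is the spread between the 6 cells of a stage, and anything that differed between the sorts or chips of the stages cannot be told apart from the stage.

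Between these stages the mouse embryo completes gastrulation and forms its first heart tube and vessels. Mesoderm that leaves the primitive streak carries the receptors Flk-1 (Kdr, the main receptor of vascular endothelial growth factor) and Pdgfra and, for a short time, the transcription factor Mesp1. Part of it becomes endothelium, whose cells hold together through VE-cadherin (Cdh5), and part becomes cardiac muscle under transcription factors such as Nkx2-5, Gata4, Tbx5, Mef2c and Hand2. Differentiated cardiac muscle cells are known by the proteins of the sarcomere, among them troponin T, troponin I and the myosin chains.

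Expression is given as 25 minus the quantification cycle (Ct), with 25 entered for an assay that gave no signal. A value of 0 therefore means not detected, and at full PCR efficiency a step of 1 cycle is a doubling of template. Efficiencies are not given, so no assay was called higher than another by its level. The correlations with reference types and the centring on the median detected assay, given below, do combine levels of different assays. The negative control of the table gave signal on 0 assays and the positive control on all 42, and 0 of the 12 cells recurred in another table of the series. E7.5 cells detected 14.3 ± 2.8 assays (SD, n = 6 cells, range 10 to 17) and E8.5 cells 24 ± 7.4 (SD, n = 6 cells, range 14 to 30). Precision is limited by the 6 cells per stage. An assay detected in 0 of 6 cells allows a share of detecting cells of up to 45.9% (exact Clopper-Pearson 95% interval, which covers counting error only). Undetected values enter the means as 0, so a difference of means mixes the share of detecting cells with their level.

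The 12 cells fell into few kinds by their markers. A cell was called endothelial-like where Cdh5 and at least 3 of the 4 endothelial assays (Flk-1, Cdh5, Pecam1, Vwf) were detected, and myocyte-like where Tnnt2-1 and at least 3 of 10 contractile assays were. At E7.5, 3 of 6 cells were endothelial-like (exact 95% interval 11.8% to 88.2%), 0 were myocyte-like (0% to 45.9%) and 3 met neither rule and stay unnamed. At E8.5, 2 cells were endothelial-like (4.33% to 77.7%), 4 were myocyte-like (22.3% to 95.7%) and 0 were unnamed. No cell met both rules. The intervals of the stages overlap for both classes. The myocyte-like cells detected 27, 30, 29 and 29 assays, and the 2 endothelial-like E8.5 cells 15 and 14, within the E7.5 range. Detection of contractile assays is part of the class rule. Among the 28 assays that neither rule used, the myocyte-like cells detected 18, 20, 19 and 18, the 2 endothelial-like E8.5 cells 10 and 9, and the E7.5 cells 8 to 14.

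**Figure D1:**
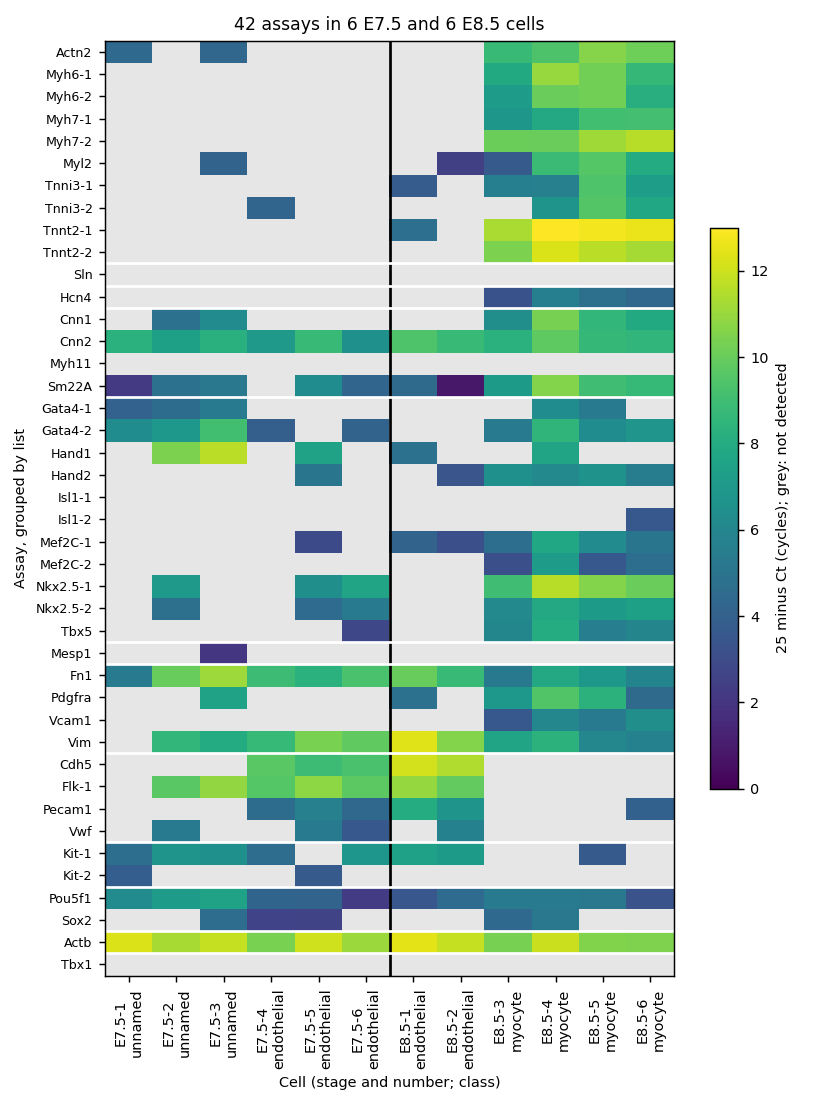
Value of each of the 42 assays (rows, grouped by gene list) in each of the 12 cells (columns), as 25 minus Ct in cycles, with grey for not detected. The contractile assays at the top are filled in the 4 myocyte-like E8.5 cells and nearly empty elsewhere, while Cdh5, Flk-1 and Pecam1 are filled in the 3 endothelial-like cells of E7.5 and the 2 of E8.5.

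The nearest reference type of each cell, taken over all assays in place of the marker rules, gave the same split. The marker assays enter both, so this is no independent support. Each cell was correlated with the mean of each of 6 reference types (5 cells each, from another table of the series) over the 41 assays other than Actb. These correlations are across assays, which are not independent, and carry no test. All 5 endothelial-like cells were nearest to the type named EDC, with r of 0.765, 0.761 and 0.728 at E7.5 and 0.714 and 0.891 at E8.5. All 4 myocyte-like cells were nearest to the type named CM, with r of 0.600, 0.662, 0.734 and 0.707. The unnamed E7.5 cells 2 and 3 were nearest to the type named CPC, at 0.667 and 0.798. Unnamed E7.5 cell 1 was nearest to FB at 0.557 and about as near to ES at 0.549. Its 10 detected assays were the fewest of the 12 cells.

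**Figure D2:**
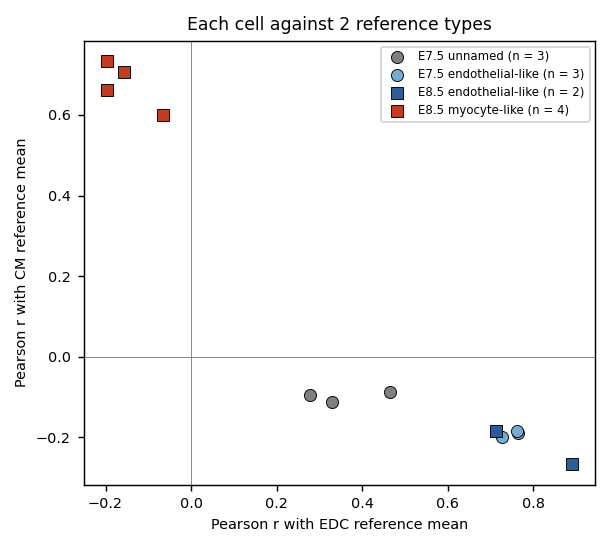
Pearson correlation of each of the 12 cells with the EDC reference mean (x axis) and the CM reference mean (y axis) over the assays other than Actb, with circles for E7.5 and squares for E8.5. The 4 myocyte-like cells lie at the upper left, with r to CM of 0.600 to 0.734, the 5 endothelial-like cells lie at the lower right and the 3 unnamed cells lie between.

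Over all 6 cells per stage, 22 of the 42 assays (52.4%) were on average 1 cycle or more above E7.5 at E8.5, 6 (14.3%) were 1 cycle or more below it, and 14 lay within 1 cycle. The 22 comprised all 10 contractile assays, 6 of 11 assays of cardiac transcription factors, 3 of 4 assays of smooth muscle genes and calponins, Pdgfra, Vcam1 and Hcn4. The 6 that were lower were Flk-1, Hand1, Kit-1, Kit-2, Vwf and Fn1. Cells of the stages overlapped in nearly every assay, and Mef2C-1 alone, 1 of 42 (2.38%), had no overlap with E8.5 higher. Actb, the only housekeeping assay, averaged 11.50 ± 0.72 at E7.5 and 11.28 ± 0.93 at E8.5 (SD, n = 6 cells each). Centring each cell on Actb shifted the median assay by 0.107 cycles and left the counts at 22 and 6. Centring on the median detected assay shifted it by -0.99 and gave 21 and 9.

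**Figure D3:**
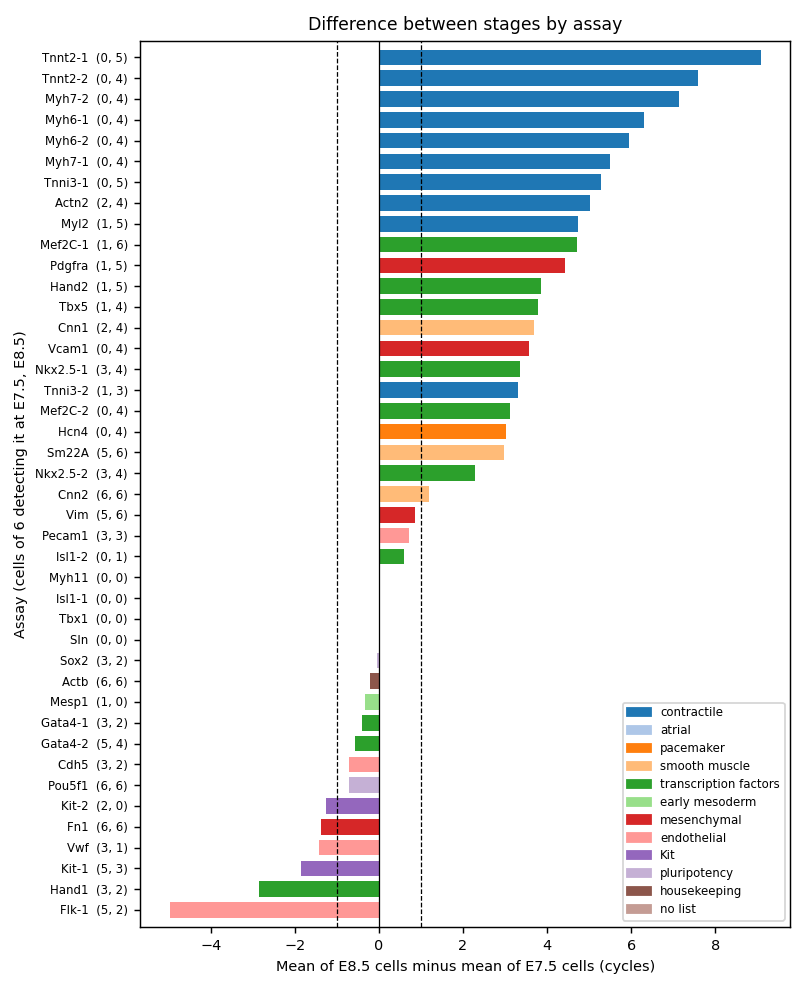
Mean of the 6 E8.5 cells minus mean of the 6 E7.5 cells for each assay (bars, in cycles), with the number of cells detecting it at each stage in brackets and dashed lines at 1 cycle either way; colours mark gene lists. Contractile assays take the top 9 places, with Tnnt2-1 at 9.08, and Flk-1 is at the other end, at -4.97.

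The contractile assays were the group with the largest differences. All 10 were at least 1 cycle higher at E8.5, with a median difference of 5.72 cycles against 1.74 over all 42 assays. Of the 10, 7 were detected in 0 of 6 E7.5 cells, against 15 of all 42 assays. The myocyte-like cells were chosen on these assays, so their values in those cells are a description. Tnnt2-1, an assay of cardiac troponin T, which anchors the troponin complex on the thin filament, read 11.34, 12.97, 12.80 and 12.63 cycles in the 4 myocyte-like cells. It was also detected in endothelial-like E8.5 cell 1, at 4.77, and in 0 of 6 E7.5 cells. That cell stood far below the myocyte-like cells, and the other assay of the gene, Tnnt2-2, was not detected in it. Tnnt2-2 read 10.41, 12.26, 11.67 and 11.24 in the myocyte-like cells and 0 in the 8 others.

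The myosin heavy chains followed the class completely. Myh6-1, an assay of alpha myosin heavy chain, the fast cardiac motor, read 7.91, 10.98, 10.25 and 8.64 in the myocyte-like cells, and Myh7-2, an assay of the slow beta chain, 10.07, 10.05, 11.13 and 11.58. Both Myh6 and both Myh7 assays were detected in all 4 myocyte-like cells and in 0 of the 8 others. The order of the 4 cells differed between assays, also between assays of the same gene. Cell 4 had the highest Myh6-1 value and, nearly level with cell 3, the lowest of Myh7-2. By Myh6-2 the highest was cell 5, at 10.21 against 10.01 in cell 4. By Myh7-1 the lowest was cell 3, at 6.905 against 7.85 in cell 4. Alpha and beta chain were thus present together in each of the 4 cells.

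Actn2, troponin I and Myl2 were less exclusive. Actn2, alpha-actinin of the Z-disc, read 8.79, 9.35, 10.64 and 10.11 in the myocyte-like cells, and 4.42 and 4.28 in the unnamed E7.5 cells 1 and 3. Myl2, the regulatory light chain of ventricular muscle, read 3.66, 8.85, 9.57 and 7.99 in the myocyte-like cells, 2.49 in endothelial-like E8.5 cell 2 and 4.14 in unnamed E7.5 cell 3. Myocyte-like cell 3 was thus below E7.5 cell 3 on this assay. Tnni3-1, an assay of cardiac troponin I, read 5.59, 5.68, 9.42 and 7.26, and 3.80 in endothelial-like E8.5 cell 1. Its partner Tnni3-2 was not detected in myocyte-like cell 3 and read 6.71, 9.53 and 7.79 in the others, with 4.25 in endothelial-like E7.5 cell 4. At least 1 contractile assay was detected in 3 of 6 E7.5 cells and in 6 of 6 E8.5 cells, always 2 assays or fewer outside the myocyte-like class.

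Within the myocyte-like class, E8.5 cell 3 was the lowest of the 4 in 9 of the 10 contractile assays, the exception being Myh7-2. E8.5 cell 4 was the highest of the 4 in 20 of the 33 assays that any of them detected. It also had the highest Actb value of the 4, at 11.97 against 10.33, 10.55 and 10.49, and the part of that in its other values was not tested. Cell 3 was lowest in Actb as well, by less than 1 cycle to its neighbours. It was also lowest in Mef2C-1, Mef2C-2, Gata4-2, Nkx2.5-1, Nkx2.5-2, Hcn4, Sm22A, Cnn1, Cnn2, Fn1 and Vcam1, so its low values were not limited to contractile assays. In Pdgfra, Tbx5, Hand2, Vim and Pou5f1, also detected in all 4, another cell was lowest.

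For 2 contractile genes that were detected together in all myocyte-like cells, Tnnt2 and Myl2, the RefSeq promoter windows hold matches to 2 motifs and are shown for that reason. The sequences are the 250 bases before the annotated start on the plus strand of GRCm38.p6, at chr1:135836084-135836333 for Tnnt2 and chr5:122092474-122092723 for Myl2, and capitals mark matches on either strand to a GATA site (AGATAA, or TTATCT read from the other strand) or an E-box (CAGCTG).
Tnnt2: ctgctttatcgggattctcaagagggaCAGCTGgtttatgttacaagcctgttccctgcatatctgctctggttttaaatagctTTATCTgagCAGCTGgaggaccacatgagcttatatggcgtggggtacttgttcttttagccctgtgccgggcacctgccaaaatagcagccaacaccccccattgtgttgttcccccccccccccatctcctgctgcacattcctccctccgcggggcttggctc
Myl2: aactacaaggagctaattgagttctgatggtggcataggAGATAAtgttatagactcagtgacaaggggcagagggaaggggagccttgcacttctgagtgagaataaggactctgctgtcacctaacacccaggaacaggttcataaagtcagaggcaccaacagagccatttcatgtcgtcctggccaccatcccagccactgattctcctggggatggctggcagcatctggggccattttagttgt
Counting the last base before the start as -1, the Tnnt2 window holds a GATA site at -166 to -161 between E-boxes at -223 to -218 and -157 to -152, and the Myl2 window a GATA site at -211 to -206. Of all 32851 promoter windows of 300 bases in the table, 11.2% hold this GATA site and 16.3% this E-box. Windows were found for 21 of the 33 measured genes, among them all 6 contractile genes. Of these 6, 2, Tnnt2 and Myl2, hold the GATA site and the E-box in any of their windows (for Myl2 the E-box lies outside the printed stretch). Of all 21 genes, 4 hold the GATA site and 4 the E-box. A CArG box or a MEF2 site was matched in 0 of the 6 contractile genes, against 1.63% and 1.86% of all windows. The gene counts cover any window of a gene and the shares single windows, so they are not like for like. A match is a description of the letters and says nothing of binding.

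The endothelial assays gave no steady difference over all cells for Cdh5 and Pecam1, and lay apart among endothelial-like cells. Cdh5 averaged 4.64 ± 5.09 at E7.5 and 3.92 ± 6.08 at E8.5 (SD, n = 6 cells each), and Pecam1, an adhesion receptor of endothelial junctions, 2.43 ± 2.70 and 3.13 ± 3.67. These differences of -0.71 and 0.70 depended on single cells. With 1 cell left out in turn, Cdh5 ranged from -2.35 (without E8.5 cell 1) to 0.29 (without E7.5 cell 4), and Pecam1 from -0.28 (without E8.5 cell 1) to 1.35 (without E7.5 cell 5). Among endothelial-like cells Cdh5 read 9.69, 8.89 and 9.27 at E7.5 and 12.12 and 11.43 at E8.5. Pecam1 read 4.60, 5.65 and 4.34 at E7.5 and 8.05 and 6.75 at E8.5. Both assays were thus higher in each E8.5 endothelial-like cell than in any E7.5 one, with means of 9.28 and 11.77 for Cdh5 and 4.86 and 7.40 for Pecam1. These are 2 cells against 3, and their detection, though not their level, was part of the rule.

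Flk-1 was lower over all cells and level among detecting cells. It averaged 8.45 ± 4.18 at E7.5, where 5 of 6 cells detected it, and 3.48 ± 5.39 at E8.5, where 2 did, a difference of -4.97 cycles. In the cells that detected it the level hardly differed, at 10.14 on average at E7.5 and 10.43 at E8.5. Flk-1 was detected in the 5 endothelial-like cells of both stages and in the unnamed E7.5 cells 2 and 3, at 9.68 and 10.91, which had no Cdh5. At E8.5 no cell had Flk-1 without Cdh5, and 0 of 4 myocyte-like cells detected it. Vwf, the von Willebrand factor of mature endothelium, was detected in E7.5 cells 2, 5 and 6 at 5.30, 5.35 and 3.57 and in E8.5 cell 2 at 5.71. E7.5 cell 2 therefore carried Flk-1 and Vwf without Cdh5 or Pecam1. Pecam1 was also detected in myocyte-like E8.5 cell 6, at 4.02, without any other endothelial assay.

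Over all 42 assays, 10 (23.8%) were higher by 1 cycle or more on average and 6 (14.3%) lower by as much in the 2 endothelial-like cells of E8.5 than in the 3 of E7.5. Ranges did not overlap for 5 of the 42 assays, Cdh5, Pecam1, Vim, Kit-1 and Mef2C-1, all higher at E8.5. With 2 cells against 3, ranges can also lie apart by chance, and this was not tested. Vim, an intermediate filament protein, read 8.70, 10.39 and 9.82 at E7.5 and 12.35 and 10.59 at E8.5. Mef2C-1, an assay of the transcription factor Mef2c, gave signal in 1 of 3 E7.5 cells, at 2.91, and read 4.15 and 3.20 at E8.5. Actb averaged 11.17 in the 3 E7.5 and 12.17 in the 2 E8.5 endothelial-like cells, a difference in the same direction. Its part in these 5 assays was not tested.

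Part of the cardiac transcription factors followed the myocyte-like class as a combination. Nkx2-5, Gata4, Tbx5, Mef2c and Hand2 were detected together in all 4 myocyte-like E8.5 cells, and in 0 of 6 E7.5 cells and 0 of 2 endothelial-like E8.5 cells. Hand1 and Isl1, the other measured factors of the list, are not in this combination and did not follow the class. Hand1 was detected in 1 of 4 myocyte-like cells, and Isl1 in 1 of 4 by Isl1-2 and 0 of 4 by Isl1-1. Nkx2.5-1 read 9.01, 11.59, 10.57 and 10.02 in the myocyte-like cells and 0 in both endothelial-like E8.5 cells. At E7.5 it was detected in 3 cells, at 6.98, 6.49 and 7.58. All 3 lay below the lowest myocyte-like cell. The second assay of the gene, Nkx2.5-2, was detected in the same 7 cells.

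Nkx2-5, a homeobox factor of early heart cells, was found with endothelial markers at E7.5. Of the 3 E7.5 cells that detected it, cells 5 and 6 were endothelial-like, and cell 2 was the unnamed cell with Flk-1 and Vwf. Cdh5 and Nkx2-5 were thus found together in 2 E7.5 cells and 0 E8.5 cells. Within endothelial-like cells Nkx2.5-1 averaged 4.69 at E7.5 and 0 at E8.5, the reverse of the difference over all cells (3.51 ± 3.86 at E7.5 and 6.86 ± 5.38 at E8.5, SD, n = 6 cells each). The ranges of the endothelial-like cells overlapped between stages. No E7.5 cell was myocyte-like, so the kind of cell cannot be told apart from the stage in the difference over all cells.

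Gata4, a zinc finger factor of cardiac and endodermal cells, differed by class at each stage. Gata4-2 averaged 5.07 ± 3.13 at E7.5 and 4.50 ± 3.63 at E8.5 (SD, n = 6 cells each). That difference of -0.57 ranged from -1.59 (without E7.5 cell 5) to 0.33 (without E8.5 cell 1 or 2) and was -1.39 with cells centred on the median detected assay. Gata4-2 read 6.30, 6.95 and 9.08 in the unnamed E7.5 cells and 3.95, 0 and 4.13 in the endothelial-like ones. At E8.5 it read 5.36, 8.49, 6.35 and 6.79 in myocyte-like cells and 0 in both endothelial-like cells. The unnamed E7.5 cells and the myocyte-like E8.5 cells overlapped. Gata4-1 was detected in all 3 unnamed cells and in 2 of the 4 myocyte-like cells, and in 0 of the 5 endothelial-like cells.

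Tbx5, Mef2c and Hand2 were mostly E8.5 assays. Tbx5, a T-box factor, read 5.98, 8.06, 5.58 and 5.90 in the myocyte-like cells and 2.84 in endothelial-like E7.5 cell 6, and was not detected in the others. Mef2C-1 was detected in 6 of 6 E8.5 cells, from 3.20 over a median of 4.87 to 7.79, and in 1 of 6 at E7.5. Mef2C-2, the other assay, was detected in the 4 myocyte-like cells and in 0 others. Hand2 read 6.51, 6.14, 6.67 and 5.44 in the myocyte-like cells, 3.41 in endothelial-like E8.5 cell 2 and 5.05 in endothelial-like E7.5 cell 5. Isl1, a factor of the second heart field, was not detected by Isl1-1 and was detected by Isl1-2 in myocyte-like cell 6 only, at 3.59. Tbx1 was detected in 0 of 12 cells.

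The 4 early mesoderm assays did not all differ in 1 direction: 1 was at least 1 cycle higher at E8.5, 2 were lower and 1 lay within 1 cycle. Hand1, a factor of early cardiac and extraembryonic mesoderm, averaged 4.92 ± 5.56 at E7.5 and 2.08 ± 3.33 at E8.5 (SD, n = 6 cells each). It read 10.41, 11.66 and 7.47 in E7.5 cells 2, 3 and 5 and 4.89 and 7.57 in E8.5 cells 1 and 4, so the stages overlapped. Mesp1 was detected in E7.5 cell 3 only, at 2.05. That cell was also the only E7.5 cell with Pdgfra, at 7.48, and 1 of its 2 contractile readings was Myl2. Pdgfra, by contrast, was higher at E8.5, with 1.25 ± 3.05 at E7.5 and 5.68 ± 3.39 at E8.5, and read 6.95, 9.46, 8.35 and 4.47 in the myocyte-like cells and 4.84 in endothelial-like cell 1. Flk-1 and Pdgfra were detected together in 1 cell per stage, E7.5 cell 3 and E8.5 cell 1.

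**Figure D4:**
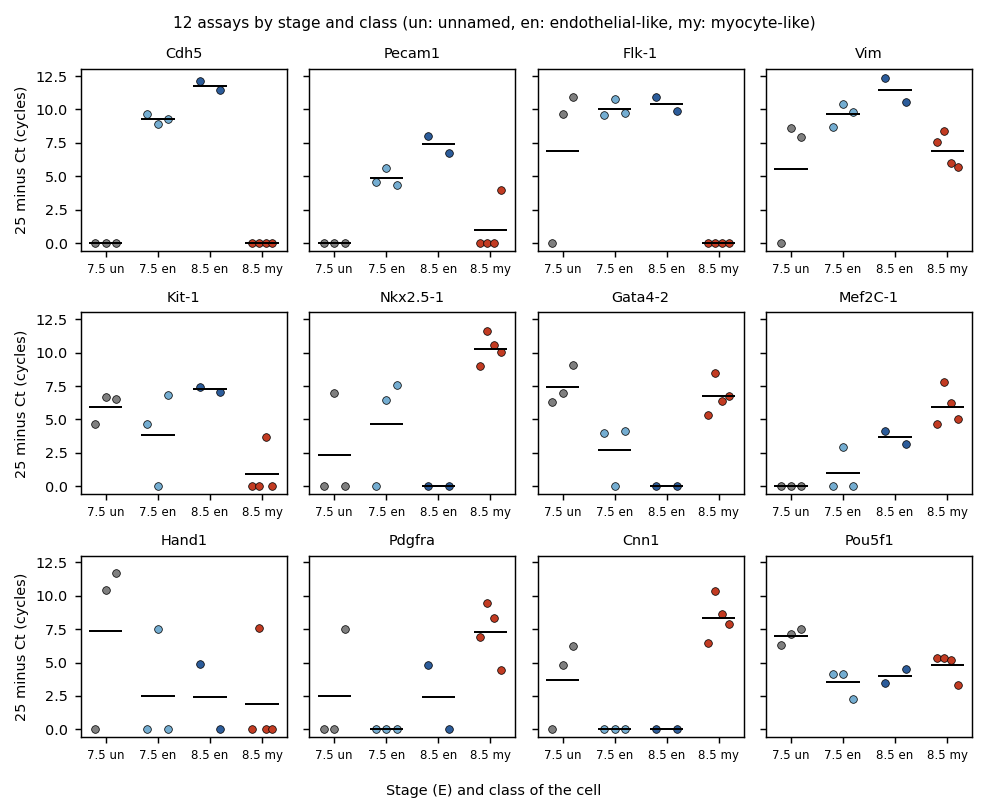
Value of 12 assays in each cell (points, 25 minus Ct in cycles) by stage and class, with the mean of each group as a horizontal line; the groups hold 3, 3, 2 and 4 cells. Cdh5 and Pecam1 are higher in the E8.5 than in the E7.5 endothelial-like cells, Flk-1 is level where detected, Nkx2.5-1 is detected in 2 endothelial-like cells at E7.5 and 0 at E8.5, and Gata4-2 is near in the unnamed E7.5 and the myocyte-like E8.5 cells.

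The E8.5 classes differed on average in part of the assays that they were not chosen on. These assays can vary together with those of the rules, so this is no independent support for the split. Of those 28 assays, 14 (50%) were higher by 1 cycle or more on average and 4 (14.3%) lower by as much in the 4 myocyte-like than in the 2 endothelial-like cells of E8.5. Beside the transcription factors, the higher ones included Hcn4, a pacemaker channel, at 3.26, 5.60, 4.81 and 4.39, and Vcam1, an adhesion molecule, at 3.57, 6.04, 5.30 and 6.44. Both were detected in the 4 myocyte-like cells and in 0 of the 8 other cells. The 4 lower ones were Kit-1, Vim, Fn1 and Actb. Actb read 12.48 and 11.85 in the endothelial-like and 10.33, 11.97, 10.55 and 10.49 in the myocyte-like cells, which overlap. Pdgfra, Gata4-1 and Sox2, among the higher assays, overlapped between the classes as well. The other higher assays and Kit-1, Vim and Fn1 did not. With 4 cells against 2, ranges can also lie apart by chance, and this was not tested.

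Smooth muscle genes were found in the myocyte-like cells, without the defining gene of mature smooth muscle. Myh11, smooth muscle myosin, was detected in 0 of 12 cells. Cnn1 (calponin, an inhibitor of the actomyosin motor) read 6.43, 10.34, 8.60 and 7.88 in the myocyte-like cells and 4.83 and 6.25 in unnamed E7.5 cells 2 and 3, and was not detected in the 5 endothelial-like cells. Sm22A (transgelin, an actin-binding protein) was detected in 11 of 12 cells. It read 7.09, 10.60, 9.0 and 8.73 in the myocyte-like cells, above every other cell, of which the highest was E7.5 cell 5 at 6.34. Cnn2, the broadly expressed calponin, was detected in all 12 cells and averaged 7.72 ± 0.87 at E7.5 and 8.92 ± 0.57 at E8.5 (SD, n = 6 cells each). Its difference of 1.20 cycles was 0.06 after centring on the median detected assay, which left 2 of the 4 smooth muscle assays at least 1 cycle higher. Sln, a calcium pump regulator of atrial muscle, was detected in 0 of 12 cells.

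Of the mesenchymal assays, Vim and Fn1 were detected at both stages in most cells. Vim averaged 7.58 ± 3.82 at E7.5 and 8.44 ± 2.60 at E8.5 (SD, n = 6 cells each), and it was not detected in unnamed E7.5 cell 1. In E8.5 cells it read 12.35 and 10.59 in the endothelial-like and 7.59, 8.37, 6.03 and 5.73 in the myocyte-like class. Fn1, the matrix protein fibronectin, was detected in all 12 cells and averaged 8.82 ± 1.95 at E7.5 and 7.45 ± 1.78 at E8.5 (SD, n = 6 cells each), though it was 0.55 higher at E8.5 among endothelial-like cells. In the myocyte-like cells it read 5.28, 7.84, 6.95 and 5.87, all below the endothelial-like E8.5 cells, of which the lower was at 8.75. Ranges of the E8.5 classes lay apart for Vim and Fn1 as they did for many other assays, so this is not particular to these genes.

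Kit, a receptor tyrosine kinase of progenitor cells, was detected by at least 1 of its assays in 6 of 6 E7.5 and 3 of 6 E8.5 cells. Kit-1 read 7.42 and 7.08 in the endothelial-like E8.5 cells and 3.70 in myocyte-like cell 5, and was not detected in the other 3. Its levels in detecting cells were close, at 5.87 on average at E7.5 and 6.07 at E8.5. The assays of Kit disagreed in most cells: 7 cells were detected by Kit-1 alone, 1 by Kit-2 alone and 1 by both. Kit results therefore rest on the assay used.

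Pou5f1 (Oct4), a factor of pluripotent cells, was detected in all 12 cells. It averaged 5.26 ± 2.04 at E7.5 and 4.54 ± 0.92 at E8.5 (SD, n = 6 cells each). Within E7.5 it read 6.28, 7.15 and 7.51 in the unnamed cells and 4.17, 4.13 and 2.31 in the endothelial-like ones, with no overlap. Of the 42 assays, Gata4-1, Gata4-2, Vim, Cdh5 and Pecam1 also had no overlap between these classes, and Cdh5 and Pecam1 are assays of the class rule. With 3 cells against 3, ranges can also lie apart by chance, and this was not tested. In the 4 myocyte-like cells, which all carried Tnnt2-2, it read 5.37, 5.31, 5.19 and 3.32. Sox2, its partner factor, was detected in 3 cells at E7.5 and 2 at E8.5, from 2.60 to 5.21 where detected.

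Of the 9 genes with a pair of assays, Nkx2-5, Myh6 and Myh7 were detected in the same cells by both assays, and the difference between stages had the same direction in both assays of 8 genes. Isl1 was the exception, as Isl1-1 gave no signal in these cells. For Gata4, 4 cells were detected by Gata4-2 alone and 0 by Gata4-1 alone.

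Set against the next stage in the same table, the 4 myocyte-like E8.5 cells averaged 1 cycle or more above the E9.5 cells in 6 of 42 assays (14.3%) and as much below them in 16 (38.1%), with 20 within 1 cycle. All 6 E9.5 cells met the myocyte-like rule. Tnnt2-1 averaged 12.43 ± 0.74 in the myocyte-like E8.5 cells (SD, n = 4) and 12.96 ± 0.58 in the E9.5 cells (SD, n = 6), and Nkx2.5-1 10.30 ± 1.07 and 10.33 ± 0.34. The largest differences with E8.5 lower were Tnni3-2, at 6.01 ± 4.17 against 10.21 ± 0.95, and Kit-2, in 0 of 4 cells against 6 of 6 at 3.82 ± 0.97. Flk-1 was detected in 0 of 4 cells against 4 of 6, at 3.52 ± 2.96 over the 6. Myl2, a contractile gene, was lower at E8.5 too, at 7.52 ± 2.65 against 11.01 ± 1.73. Pdgfra was higher, at 7.31 ± 2.15 in 4 of 4 cells against 0.81 ± 1.97 in 1 of 6, as was Pou5f1, at 4.80 ± 0.99 against 1.29 ± 2.14. Actb averaged 10.84 ± 0.76 and 8.87 ± 0.64, a difference in the same direction as those of Pdgfra and Pou5f1. Its part in them was not tested.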

How the data were processed

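The deposited tables hold Ct values per cell and assay from single cells run on microfluidic quantitative PCR chips. Per the labels' protocols, RNA of each sorted cell was reverse transcribed and pre-amplified with the assays before the chip run, so Ct includes that step. The authors deposited 1 Ct per assay and cell, and 25 is the highest value in the tables and was read as no signal. How the Ct threshold, the number of cycles and any filter on cells were set is not given in the sources used here. Cells, 12 in all, were taken by cell name, and the table's 2 control columns were left out; 0 columns stayed without a sample. Expression was 25 minus Ct, with no normalization, and differences between stages are differences of means over cells.

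The labels name no embryo, litter or sort, so no test was run. Exact Clopper-Pearson 95% intervals cover counting error only. Per-cell values were planned for the 12 largest differences each way of at least 1 cycle. They were also planned for assays whose detecting cells differed by at least 3 of 6, and for Flk-1, Cdh5, Tnnt2-1 and Pdgfra. For some of these, among them Myh6-2, Myh7-1, Mef2C-1, Mef2C-2, Flk-1, Kit-1, Kit-2 and Fn1, only part of the cells, means or counts are given. Other assays were named after their values were seen. The members, gene lists and rules were chosen with earlier results of these data known. Assay names were matched to RefSeq genes by symbol, letter case or synonym (Flk-1 is Kdr, Sm22A is Tagln). Promoters are RefSeq windows of 300 bases (GRCm38.p6), searched on both strands. Besides the motifs given with the promoters, the Nkx site CAAGTG and the ETS sites AGGAAG and ACCGGAAG were found in 0 of the 6 contractile genes. The share of all windows with CAAGTG was 13.6%, with AGGAAG 35.4% and with ACCGGAAG 2.3%. Alternatives were Actb or the cell's median detected value as its zero, a detection limit of Ct 23, detecting cells only, medians, a threshold of 2 cycles, filters on cells, other marker rules, 1 class alone and each cell left out. Python 3.11.15, numpy 2.4.6, pandas 2.3.3, scipy 1.17.1 and matplotlib 3.10.9 were used, and the procedure was tested on simulated data. The simulated differences had a small spread and no undetected values, unlike many of the real assays. That test therefore checks the code and says nothing of the error of the differences given here.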

Additional observations from a re-analysis of the deposited data

Results flagged for a closer look

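In 12 of 63 groups of 6 cells with any spread, 1 cell lay apart from the others by more than Dixon's 95% critical ratio of 0.625. Chance alone singles out about 1 in 20 such groups, and the rule assumes a normal spread, which values with many zeros do not have. In 9 of the 12 the cell was the only one of its stage to detect the assay. At E7.5 these were cell 3 with Pdgfra at 7.48, Myl2 at 4.14 and Mesp1 at 2.05; cell 4 with Tnni3-2 at 4.25; cell 5 with Hand2 at 5.05 and Mef2C-1 at 2.91; and cell 6 with Tbx5 at 2.84. At E8.5 they were cell 2 with Vwf at 5.71 and cell 6 with Isl1-2 at 3.59. In the other 3, 1 E7.5 cell lacked an assay that the other 5 detected. Cell 1 read 0 for Flk-1, against 9.57 to 10.91 in the others, and 0 for Vim, against 7.98 to 10.39. Cell 5 read 0 for Kit-1, against 4.63 to 6.82.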

How the results depend on the processing

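The count of 22 assays at least 1 cycle higher at E8.5 was 10 of 18 over detecting cells only and 10 among endothelial-like cells only, and 22 to 24 with each cell left out in turn. The count of 6 lower assays was 2 with a threshold of 2 cycles, 2 over detecting cells only, and 5 to 8 with each cell left out. Counting any detected contractile assay gave 3 myocyte-like cells at E7.5 in place of 0 and 6 at E8.5 in place of 4. With 2 markers needed in place of 3, 5 cells at E8.5 were myocyte-like, and endothelial-like E8.5 cell 1 met both rules. Any endothelial assay but Flk-1 gave 4 endothelial-like cells at E7.5 in place of 3 and 3 at E8.5 in place of 2. A detection limit of Ct 23 left the counts of both classes as they were. Of the named differences of at least 1 cycle, Flk-1 (0.29) and Kit-1 (0.20) turned direction over detecting cells only. Among endothelial-like cells Flk-1 (0.40), Kit-1 (3.43), Fn1 (0.55), Tbx5 (-0.95), Tnni3-2 (-1.42), Sm22A (-0.86), Nkx2.5-1 (-4.69) and Nkx2.5-2 (-3.31) did. Differences under 1 cycle turned as well: over detecting cells only Cdh5 (2.5), Gata4-1 (1.13), Gata4-2 (0.66), Sox2 (1.51) and Vim (-0.65), and among endothelial-like cells Cdh5 (2.5), Actb (1.0) and Pou5f1 (0.49). By medians Cdh5 was -4.44 and Gata4-1 -2.06, while Gata4-2 (0.64), Vim (-0.665) and Pecam1 (-0.16) turned direction. The Gata4 assays thus differed in sign by medians. Of the alternatives, 2 were chosen after seeing the data: leaving out the endothelial-like cells, which gave 23 higher and 8 lower, and a cell filter with a scaled deviation, which left out 2 cells and gave 22 and 5. The planned unscaled filter left out 8 cells, among them all 6 of E7.5, and gave no value. No paired analysis was possible because cell numbers do not link the stages and no test was run. With 6 cells per stage, an assay seen in 0 cells could still be present in up to 45.9% of cells.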
